A study of Mus musculus with 6 samples.

Results

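Txnip, 4 of its alpha-arrestin relatives (Arrdc1 to Arrdc4), the thioredoxins Txn1 and Txn2 and the thioredoxin reductases Txnrd1, Txnrd2 and Txnrd3 were followed in osteoblast cultures with and without verapamil. Genes were taken by symbol from a table of 17491 genes, and all 10 were in it and passed the filter on low counts. The data comprised 3 control and 3 verapamil RNA-seq libraries at day 7 of osteogenic culture. Both groups started from wildtype mesenchymal stem cells taken from the marrow of mouse tibiae and femora and were kept in low-glucose medium with serum, dexamethasone, β-glycerophosphate and ascorbic acid. Verapamil blocks L-type voltage-gated calcium channels. The labels give no dose, length of exposure, strain, age or vehicle, and do not state whether replicates were independent cultures or animals. The p-values therefore speak of the variation among these 6 libraries, and that variation may be technical.

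Thioredoxins are small proteins that reduce disulphides in other proteins through a pair of active-site cysteines. Txn1 works in the cytosol and nucleus and Txn2 in mitochondria, and each is returned to its reduced form by a selenium-containing, NADPH-dependent reductase. Txnip belongs to the alpha-arrestins, adaptors that bring membrane proteins together with ubiquitin ligases of the NEDD4 family, and it is the member that binds reduced thioredoxin. Its transcription is known to follow glucose through the factors MondoA (gene Mlxip) and ChREBP (gene Mlxipl) with their partner Mlx, and Arrdc4 is another target of MondoA. In pancreatic beta cells verapamil is known to lower Txnip expression.

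Promoter sequences are shown for Txnip and Txnrd1, the members whose RNA passed the test below, and for Arrdc4, the alpha-arrestin whose order among the controls matched that of Txnip. All 10 genes matched the RefSeq promoter table by symbol (build GRCm38.p6). Each sequence holds the 250 bases before a RefSeq start, 5′ to 3′ in the direction of the gene. Capitals mark matches on either strand to the E-box CACGTG, its imperfect form CACGAG, the CCAAT box, or the antioxidant element cores TGACNNNGC and TGAGNNNGC. Txnrd1 has 3 starts in the table, and the second of them is shown because only that one held a match to TGACNNNGC.
Txnip, chr3:96557707-96557956, plus strand: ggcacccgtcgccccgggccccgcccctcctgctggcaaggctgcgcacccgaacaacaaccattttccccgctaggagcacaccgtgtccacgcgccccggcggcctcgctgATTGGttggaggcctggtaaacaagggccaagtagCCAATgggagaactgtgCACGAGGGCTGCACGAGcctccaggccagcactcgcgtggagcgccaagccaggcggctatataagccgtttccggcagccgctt
Arrdc4, chr7:68749239-68749488, minus strand: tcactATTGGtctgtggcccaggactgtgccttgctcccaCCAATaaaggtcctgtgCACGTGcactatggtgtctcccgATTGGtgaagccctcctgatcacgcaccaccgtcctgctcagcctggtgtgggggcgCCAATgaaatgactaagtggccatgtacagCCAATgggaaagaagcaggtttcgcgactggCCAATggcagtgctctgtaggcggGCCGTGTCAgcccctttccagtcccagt
Txnrd1, chr10:82858956-82859205, plus strand: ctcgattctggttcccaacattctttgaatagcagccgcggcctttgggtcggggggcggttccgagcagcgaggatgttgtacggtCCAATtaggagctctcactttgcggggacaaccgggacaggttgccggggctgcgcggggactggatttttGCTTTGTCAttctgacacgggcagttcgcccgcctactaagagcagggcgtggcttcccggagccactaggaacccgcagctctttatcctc

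In the Txnip promoter, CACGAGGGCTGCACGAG lies at positions -85 to -69 from the start and holds 2 imperfect E-boxes 5 bases apart, the arrangement known as a carbohydrate response element. Searched as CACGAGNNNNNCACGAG, the letters of the Txnip pair itself, it was found in 1 of 32851 promoters of the same length (0.00304%), that of Txnip. A match in Txnip was thus fixed beforehand. The share counts exact copies of these letters and does not measure how common carbohydrate response elements are. A single CACGAG was present in 5.37% of promoters. Txnip also held a CCAAT box at -102 to -98, another in the reverse direction at -137 to -133, and the forkhead core GTAAACA, which is not in capitals, at -121 to -115, found in 3.17% of promoters. Arrdc4 held 1 perfect E-box, at -193 to -188, as 6.02% of promoters do, and 6 CCAAT boxes, where 33.8% of promoters hold at least 1. Matches to TGACNNNGC stood at -28 to -20 in Arrdc4 and at -92 to -84 in the Txnrd1 promoter shown, a start picked for that match. Such a match was held by 2 of the 14 promoters of the members and by 10.2% of all promoters. These matches describe the letters in the window and no binding was measured.

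Libraries held 18227790 to 21705960 estimated reads, and levels are given as CPM, the share of a library's reads taken by a gene, after TMM scaling. Of 13366 genes tested, 4235 passed at an adjusted p under 0.05, with 48.5% of them higher in verapamil, or 63.7% with scaling by library totals alone. Control libraries differed more among themselves than verapamil libraries did, and 72.9% of genes had the larger SD in the controls. Osteoblast markers were present in every library, and 12 of 14 were lower with verapamil. Macrophage markers were also abundant in every library, and 16 of 19 were higher, with their summed level at 11421 to 13964 CPM in the controls and 20402 to 22881 CPM in the verapamil libraries. Of the hypoxia response genes 14 of 19 were lower, at 3510.01 to 8572 CPM in sum in the controls, highest in control replicate 2, against 2490.1 to 2875 CPM. That count was 7, 5 and 6 without verapamil replicates 1, 2 and 3. It was 8 with no filter on low counts. Of other cell types, 2 of 10 neutrophil markers passed the low-count filter, and both were higher. Their sum was 5.40 to 5.93 CPM in the controls and 8.45 to 9.11 CPM with verapamil, and S100a8, 1 of the 2, stood at 0.276 to 1.12 CPM over the 6 libraries. Adipocyte markers had 2 of 6 higher and 1 lower (576 to 817 and 818 to 982 CPM), and endothelial markers 1 of 7 higher and 2 lower (57.0 to 61.2 and 50.5 to 51.0 CPM). No lymphocyte or erythroid marker passed the low-count filter.

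Txnip and Txnrd1 were the 2 members that passed the test, both higher in verapamil libraries. By edgeR, 2 of 10 members were called in either direction, against 31.7% of all genes tested, and 2 of 10 were called higher, against 15.4%. None was called lower by edgeR, DESeq2 or limma-voom, where edgeR called 16.3% of all genes lower. At an unadjusted p under 0.05 the edgeR count was also 0, against 21.7% of all genes. Groups did not overlap in 2 members, against 49.6% of genes. The members' median log2 fold change was 0.06, and that of all genes 0.01.

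**Figure D1:**
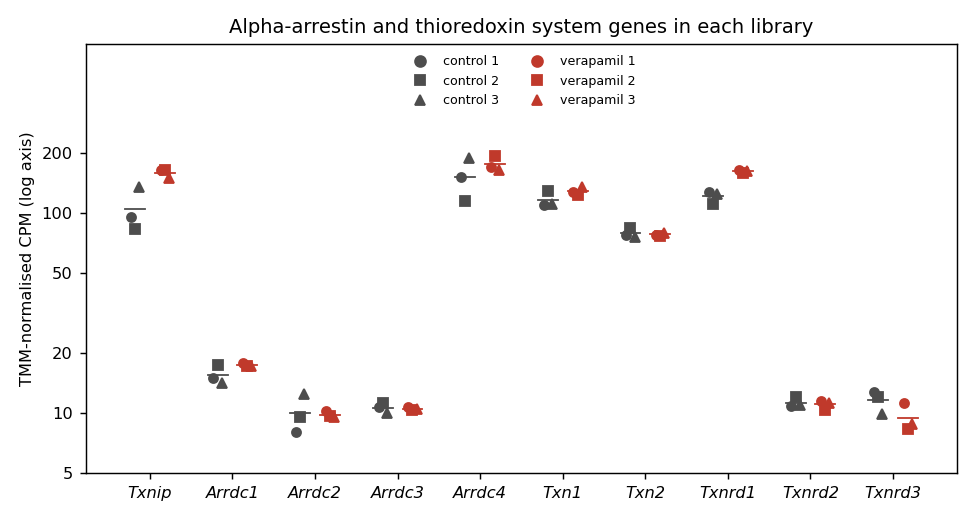
TMM-normalised CPM (log axis) of the 10 genes in each control (grey) and verapamil (red) library, with a short line at each group mean (n = 3). Txnip and Txnrd1 have all 3 verapamil values above all 3 control values, and control values of Txnip and Arrdc4 are spread widely, from 83.1 to 134 CPM and from 115 to 187 CPM.

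Txnip (Entrez 56338, chromosome 3, 96557957 to 96561857 in GRCm38) stood at 95.8, 83.1 and 134 CPM in control replicates 1, 2 and 3. In verapamil replicates 1, 2 and 3 it stood at 163, 165 and 149 CPM. The lowest value was that of control replicate 2, and control replicate 3 came nearest to the verapamil libraries without reaching them. The means were 104 ± 26.7 and 159 ± 8.52 CPM (SD, n = 3 each), a rise of 1.52-fold or 0.61 ± 0.17 SE on the log2 scale, with a 95% interval of 0.21 to 0.999 (edgeR adjusted p = 0.0319). More RNA per cell and a larger share of cells that express the gene cannot be told apart in these bulk libraries, nor can less RNA and fewer such cells where a level fell.

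The call for Txnip depended on single libraries. It was lost without control replicate 1 (adjusted p = 0.0983), control replicate 2 (0.0735) or verapamil replicates 1, 2 or 3 (0.0956, 0.0975 and 0.0673), and with no filter on low counts (0.0577). Without control replicate 3 the log2 fold change was 0.83 (adjusted p = 1.56e-04). The direction was the same in each of these fits, with log2 fold changes of 0.46 to 0.83 when 1 library was left out.

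Txnip followed the order of the macrophage marker sum over all 6 libraries, and Lyz2 was the largest part of that sum. From the lowest to the highest, that sum was 11421 CPM in control replicate 2, 12772 in control replicate 1, 13964 in control replicate 3, 20402 in verapamil replicate 3, 21463 in verapamil replicate 1 and 22881 in verapamil replicate 2. The hypoxia response genes ran in the opposite order among the controls, at 8572, 5558 and 3510.01 CPM in control replicates 2, 1 and 3. Verapamil replicates 1, 3 and 2 had 2875, 2744 and 2490.1 CPM of them. The part of either list in the level of Txnip, of Txnrd1 or of the pathway genes below was not tested.

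**Figure D2:**
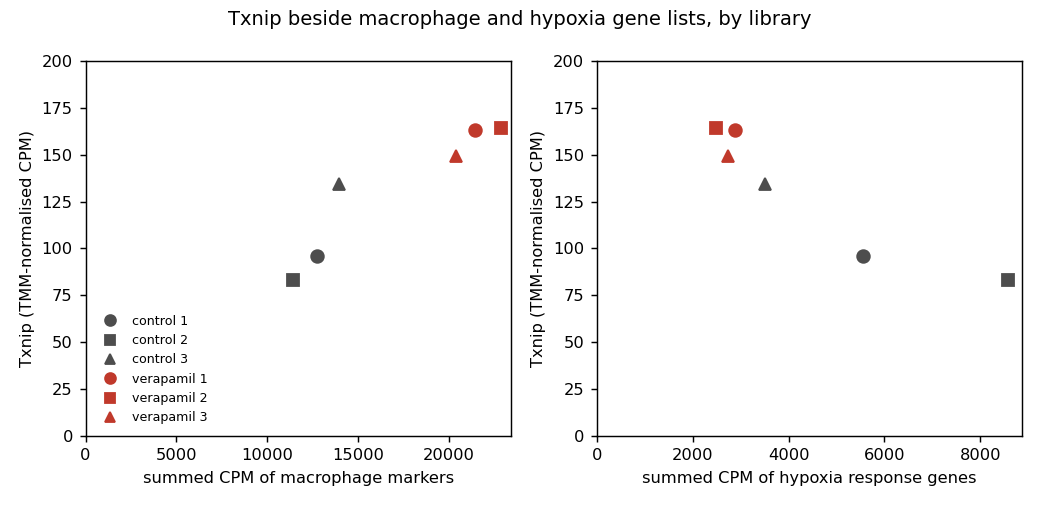
Txnip (TMM-normalised CPM) in each library against the summed CPM of 19 macrophage markers (left) and 19 hypoxia response genes (right), controls in grey and verapamil in red. Txnip is lowest, at 83.1 CPM, in control replicate 2, which has the lowest macrophage sum (11421 CPM) and the highest hypoxia sum (8572 CPM). Lyz2 is the largest part of the macrophage sum, and not every marker in it is lowest in that library.

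Arrdc4, an alpha-arrestin that like Txnip limits glucose uptake, was as abundant as Txnip but did not pass the test. Its levels were 151, 115 and 187 CPM in control replicates 1, 2 and 3, and 169, 192 and 165 CPM in verapamil replicates 1, 2 and 3. Control replicate 3 lay above verapamil replicates 1 and 3, so the groups overlapped. The means were 151 ± 36.0 and 175 ± 14.8 CPM. Its log2 fold change was 0.21 ± 0.17 SE, with a 95% interval of -0.18 to 0.61 (edgeR adjusted p = 0.367). Among the controls, Arrdc4 had the same order as Txnip, with replicate 2 lowest and replicate 3 highest, and their highest values were 1.62 times their lowest for both genes. Without control replicate 3, Arrdc4 was past the test (0.39, adjusted p = 0.0377).

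Other alpha-arrestins were expressed at lower levels and did not pass. Arrdc1, an adaptor known for the budding of vesicles from the plasma membrane, stood at 14.8, 17.4 and 14.1 CPM in the controls and at 17.7, 17.1 and 17.1 CPM with verapamil. Its log2 fold change was 0.16 ± 0.09 SE (interval -0.05 to 0.38, edgeR adjusted p = 0.216), and it passed without control replicate 2 (0.25, adjusted p = 0.0382). Arrdc2 ranged from 8.03 to 12.4 CPM in the controls and from 9.52 to 10.2 CPM with verapamil, and so the verapamil range lay within that of the controls. Arrdc3, known for regulating β-adrenergic receptors, ranged from 9.97 to 11.2 CPM in the controls and from 10.3 to 10.6 CPM with verapamil. The 95% intervals of their log2 fold changes were -0.38 to 0.32 for Arrdc2 and -0.22 to 0.19 for Arrdc3.

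Txn1, the cytosolic thioredoxin that Txnip binds, was at 109, 129 and 111 CPM in control replicates 1, 2 and 3 and at 127, 123 and 134 CPM in the verapamil libraries. Control replicate 2 was the only control inside the verapamil range. Its log2 fold change was 0.14 ± 0.08 SE with an interval of -0.03 to 0.31 (edgeR adjusted p = 0.195). Txn1 was past the test without control replicate 2 (0.22, adjusted p = 0.00901) and with scaling by library totals alone (0.22, adjusted p = 0.0334). Txn2, the mitochondrial thioredoxin, stood at 77.1, 84.0 and 75.7 CPM in the controls and at 77.6, 76.9 and 79.5 CPM with verapamil. Its interval of -0.15 to 0.12 was the narrowest of the 10 genes.

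Txnrd1, the cytosolic reductase that recycles Txn1 and a known target of the antioxidant factor NRF2 (Entrez 50493, chromosome 10, 82833951 to 82897724), stood at 127, 111 and 125 CPM in control replicates 1, 2 and 3. In verapamil replicates 1, 2 and 3 it stood at 164, 157 and 163 CPM. All 3 verapamil values lay above the controls, and both groups were tightly spaced. The means were 121 ± 8.84 and 161 ± 3.55 CPM, a rise of 1.34-fold, or 0.42 ± 0.06 SE on the log2 scale (interval 0.27 to 0.56, edgeR adjusted p = 0.00249). The call was kept when each library was left out in turn (adjusted p = 3.71e-04 to 0.0216) and in the 10 other fits.

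Txnrd2 and Txnrd3, the mitochondrial reductase and a reductase with an added glutaredoxin domain that is known mainly from testis, were low. Txnrd2 ranged from 10.8 to 12.02 CPM in the controls and from 10.3 to 11.5 CPM with verapamil (log2 fold change -0.03, interval -0.24 to 0.18). Txnrd3 stood at 12.7, 12.02 and 9.88 CPM in the controls and at 11.2, 8.26 and 8.80 CPM with verapamil. Its log2 fold change was -0.30 ± 0.14 SE (interval -0.63 to 0.03, edgeR adjusted p = 0.151). Verapamil replicate 1 lay above control replicate 3, so the groups overlapped, and without control replicate 3 Txnrd3 was at -0.40 (adjusted p = 0.0488).

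**Figure D3:**
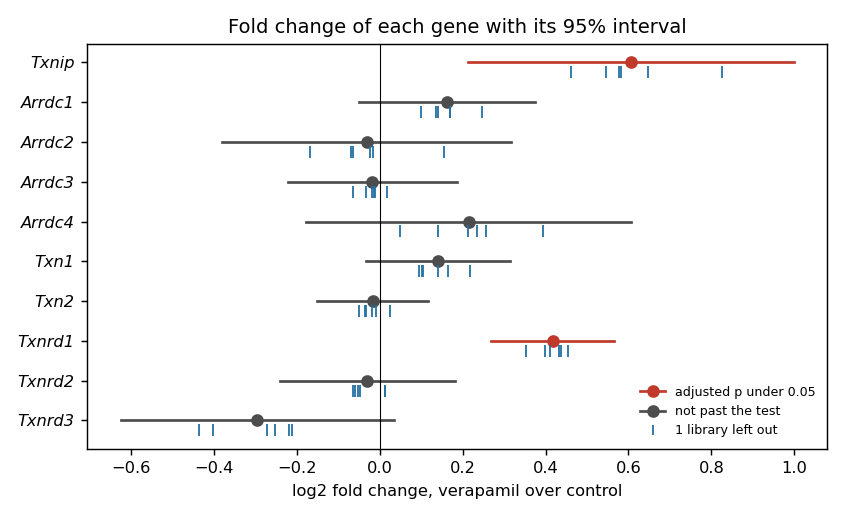
Log2 fold change of verapamil over control for each gene (points) with its 95% interval (bars, edgeR, n = 3 per group), in red where the adjusted p is under 0.05, and the values with 1 library left out (blue ticks). The intervals of Txnip (0.21 to 0.999) and Txnrd1 (0.27 to 0.56) lie above 0, and the other 8 include 0.

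Ratios of members within a library do not depend on how libraries are scaled. Txnip to Txn1, the inhibitor over its target, was 0.878, 0.642 and 1.21 in control replicates 1, 2 and 3 and 1.29, 1.33 and 1.11 with verapamil. Verapamil replicate 3 lay below control replicate 3. The mean log2 ratio was 0.49 higher with verapamil (exact two-sided permutation p = 0.2, where 20 groupings allow no p under 0.1), and left-out libraries gave 0.26 without control replicate 2 and 0.72 without control replicate 3.

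The other ratios were chosen after the values were seen and are given as a description. Txnip to Arrdc4 was 0.634, 0.721 and 0.717 in the controls and 0.964, 0.855 and 0.906 with verapamil. Control values that differed 1.62-fold for each gene alone thus lay close together as a ratio, and below the verapamil values. Txnrd1 to Txn1 was 1.16, 0.856 and 1.13 in the controls and 1.29, 1.28 and 1.21 with verapamil. Txn1 to Txn2 was 1.41, 1.54 and 1.46 in the controls and 1.64, 1.60 and 1.69 with verapamil, also without overlap. Txnip to Txnrd1 was 0.754, 0.750 and 1.08 in the controls and 0.994, 1.04 and 0.918 with verapamil, and control replicate 3 lay above all 3 verapamil libraries.

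**Figure D4:**
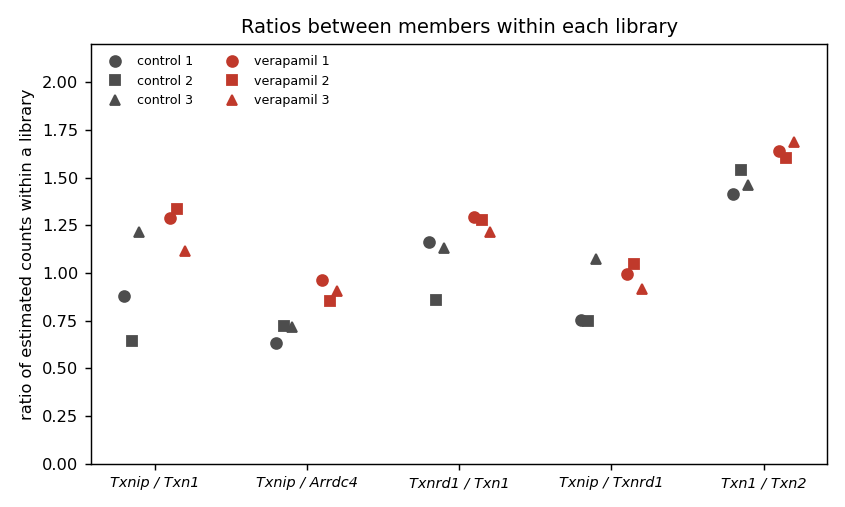
Ratio of the estimated counts of 2 genes within each library, not corrected for gene length, controls in grey and verapamil in red. Txnip to Arrdc4 spans 0.634 to 0.721 in the controls and 0.855 to 0.964 with verapamil, while Txnip to Txn1 overlaps between groups.

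Levels of different genes were compared as CPM per kilobase of the longest GENCODE coding transcript. Txn1 was the most abundant member in every library, at 111 ± 10.7 CPM per kilobase in control and 122 ± 5.17 in verapamil libraries (SD, n = 3 each). Txnip (36.9 ± 9.43 and 56.2 ± 3.01), Arrdc4 (38.7 ± 9.21 and 44.9 ± 3.78), Txnrd1 (33.4 ± 2.44 and 44.6 ± 0.981) and Txn2 (38.5 ± 2.17 and 38.1 ± 0.668) came next, with ranges over the 6 libraries that overlapped between neighbours. Arrdc1 followed at 9.27 ± 1.01 and 10.4 ± 0.223 CPM per kilobase, above every value of the remaining 4. Arrdc2, Txnrd2 and Txnrd3 overlapped at group means of 3.32 to 4.23, and Arrdc3 was lowest in every library, at 2.59 ± 0.153 and 2.55 ± 0.0370. With the shortest coding transcript in place of the longest, 3 of 10 members kept their place and Txnrd1 came first, at 208 CPM per kilobase in the controls.

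Per kilobase, Txnip held 38.7%, 38.6% and 42.6% of the summed level of the 5 alpha-arrestins in control replicates 1, 2 and 3, and 48.7%, 46.8% and 47.2% with verapamil. Arrdc4 held 38.8% to 44.2% of it in the controls and 36.6% to 39.6% with verapamil. Txnrd1 made up 78.4% to 82.6% of the 3 reductases in the controls and 85.1% to 87.0% with verapamil. Txnip and Txnrd1 thus held a larger share of their families in every verapamil library than in any control.

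Genes most like Txnip were those with the smallest root mean square difference from it in log2 CPM, each gene centred on its mean over the 6 libraries, with 10555 genes compared, all averaging 5 CPM or more. They were Stab1 (0.03 on the log2 scale), a scavenger receptor of sinusoidal endothelium and macrophages, Phf19 (0.05), a subunit of a polycomb complex, Mcm6 (0.05), a part of the replicative helicase, Aurkb (0.05), a mitotic kinase, and Ube2c (0.05), a ubiquitin-conjugating enzyme of mitosis. The median difference over these genes was 0.39. Stab1 stood at 1160.5, 957 and 1579 CPM in control replicates 1, 2 and 3 and at 1847, 1937 and 1780.05 CPM with verapamil. It thus had the order of Txnip among the controls and in the verapamil libraries. Of the members, Txnrd1 and Arrdc4 came nearest to Txnip, both at 0.21, and 8.21% and 8.58% of the genes were nearer.

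Genes most like Txnrd1 by the same measure were Cpped1 (0.02), a protein phosphatase, Lpcat3 (0.02), an enzyme of phospholipid remodelling, Atp6v1h (0.03), a subunit of the lysosomal proton pump, Rnd2 (0.03), a small GTPase, and Ndufb6 (0.03), a subunit of respiratory complex I. Cpped1 stood at 62.0, 55.9 and 63.0 CPM in the controls and at 83.6, 78.5 and 81.6 CPM with verapamil. Against a median difference of 0.24 over all genes compared, these 5 profiles lay close to that of Txnrd1.

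Regulators of Txnip transcription mostly did not pass the test. Of 15 tested, 1 rose and 14 did not pass, with a median log2 fold change of -0.01 against 0.01 for all genes. Among all genes tested, edgeR called 15.4% higher and 16.3% lower, and most did not pass. The counts of this list and of those below stand against these shares. Without control replicate 3 the counts were 2 higher and 2 lower, and with library totals alone 2 higher and 0 lower. Ybx1, a factor that binds the Y box and also RNA, rose from 767 ± 16.1 to 1038 ± 33.7 CPM (0.44 ± 0.07 SE, edgeR adjusted p = 0.00237). Mlxip, encoding MondoA, was at 88.9 ± 1.68 and 86.9 ± 1.51 CPM (adjusted p = 0.653), and its partner Mlx at 24.9 ± 0.149 and 27.7 ± 0.638 CPM (adjusted p = 0.0804). Mlxipl had estimated counts of 2 to 6.87 per library and was below the filter. Mlxip, Mlx and Mlxipl were named after their values were seen.

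Ubiquitin ligases of the NEDD4 family, partners of alpha-arrestins, moved in both directions. Of 9 tested, 5 fell, 1 rose and 3 did not pass, with a median of -0.30, and with library totals alone 3 fell and 2 rose. Smurf2, which also acts on TGF-β receptors, fell from 305 ± 23.5 to 209 ± 3.80 CPM (-0.54 ± 0.07 SE, edgeR adjusted p = 0.00102). Wwp1 rose from 169 ± 38.9 to 249 ± 10.8 CPM (adjusted p = 0.0319), and Hecw1 (-1.07, adjusted p = 0.0495) and Hecw2 (-0.52, adjusted p = 0.0298), both under 6 CPM, fell. The groups of Hecw1 overlapped (1.19 CPM in control replicate 3 and 1.26 in verapamil replicate 2), and its call held in 1 of 6 fits with a library left out, without control replicate 3 (adjusted p = 0.00153, and up to 0.164 in the other 5). It was also lost with library totals alone, by limma-voom and with counts not rounded (adjusted p = 0.0560, 0.104 and 0.0517). The call of Hecw2 was lost without control replicate 1, verapamil replicate 1 or verapamil replicate 3 (adjusted p = 0.0700, 0.104 and 0.0981) and with library totals alone (0.0502). Itch, the ligase known to ubiquitinate Txnip itself and named after its value was seen, was at 94.9 ± 6.43 and 96.0 ± 4.06 CPM (adjusted p = 0.877). The falls numbered 2 without control replicate 1 or verapamil replicate 1, and 3 without verapamil replicates 2 or 3, and the call of Wwp1 was lost whenever control replicate 1 or a verapamil library was left out (adjusted p = 0.0752 to 0.103) and with no filter on low counts (0.0515).

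Among proteins tied to Txnip function, 5 of 10 rose, 2 fell and 3 did not pass, with a median of 0.25. Slc2a1, the basal glucose transporter that Txnip helps to internalise, fell from 113 ± 61.0 to 41.6 ± 2.97 CPM (-1.44 ± 0.37 SE, edgeR adjusted p = 0.0287), and Slc2a3, another glucose transporter, fell from 30.6 ± 5.75 to 17.5 ± 0.890 CPM (adjusted p = 0.00351). Slc2a1 is also one of the hypoxia response genes, whose sums are given above. Nlrp3, the inflammasome sensor reported to bind Txnip, rose from 19.96 ± 2.47 to 26.4 ± 2.19 CPM (adjusted p = 0.0207), in libraries with more macrophage marker RNA. Arrb2, a beta-arrestin, rose by 0.40 on the log2 scale. The number that rose was 2, 1, 2 and 3 without control replicate 1 and verapamil replicates 1, 2 and 3. Leaving out any verapamil library ended the call of Slc2a1 (adjusted p = 0.0674 to 0.0873), as did using no filter on low counts (0.0896). The call of Nlrp3 ended when control replicate 1, verapamil replicate 1 or verapamil replicate 2 was left out (adjusted p = 0.0801 to 0.0923).

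Peroxiredoxins, methionine sulphoxide reductases, ribonucleotide reductase subunits and Srxn1, listed together as clients of thioredoxin, moved in both directions. Not every gene on this list encodes a protein that takes electrons from thioredoxin directly. Of 14 tested, 5 rose, 2 fell and 7 did not pass, with a median of 0.19, and with library totals alone 8 rose and 2 fell. Msrb1, a selenium-containing methionine sulphoxide reductase, rose from 65.9 ± 1.65 to 103 ± 8.21 CPM (0.65 ± 0.07 SE, edgeR adjusted p = 5.61e-04). Msrb2, the mitochondrial counterpart of Msrb1, rose by 0.54. Msrb3, another methionine sulphoxide reductase, fell from 251 ± 6.31 to 174 ± 2.93 CPM (-0.53 on the log2 scale, adjusted p = 4.13e-04), and Msra did not pass (adjusted p = 0.670). Msrb3 and Msra were named after their values were seen. Prdx1, the main cytosolic peroxiredoxin, rose from 424 ± 26.5 to 613 ± 3.71 CPM (0.53 ± 0.07 SE, adjusted p = 0.00110). Rrm2, the small subunit of ribonucleotide reductase, averaged 149 ± 30.7 CPM without and 100.4 ± 7.04 CPM with verapamil and fell by 0.57 on the log2 scale (adjusted p = 0.0227). Leaving out control replicate 1 or any verapamil library ended the call of Rrm2 (adjusted p = 0.0544 to 0.0812), and the number that fell was then 1.

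Other proteins with a thioredoxin fold, listed together with glutathione reductase, mostly did not pass, as most of all genes did not. Of 20 tested, 4 rose, where 15.4% of all genes were called higher, and 16 did not pass, with a median of 0.06. With library totals alone 7 rose, and with upper-quartile factors 6. Gsr, the glutathione reductase and so the counterpart of Txnrd1 in the glutathione system, rose from 46.0 ± 6.30 to 78.5 ± 2.49 CPM (0.77 ± 0.09 SE, edgeR adjusted p = 9.26e-04). Glrx, the cytosolic glutaredoxin, rose from 62.8 ± 4.67 to 88.1 ± 5.28 CPM (adjusted p = 0.00213), and Tmx2 (0.28) and Glrx3 (0.26) rose too. The number that rose was 2 without verapamil replicate 1, where Tmx2 and Glrx3 both lost their calls (adjusted p = 0.0532 and 0.0601). Glrx3 also lost its call without control replicate 1, verapamil replicate 2 or verapamil replicate 3 (adjusted p = 0.0600, 0.0707 and 0.0970). Of 8 genes for making selenoproteins, the class to which the reductases belong, 2 rose and 6 did not pass, with a median of 0.06. They were Sephs2, which makes selenophosphate (41.3 ± 3.01 to 57.0 ± 0.338 CPM, adjusted p = 0.00180), and Scly, which frees selenium from selenocysteine (36.2 ± 1.76 to 50.4 ± 1.75 CPM, adjusted p = 0.00124).

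Reads of overlapping genes could not be separated, since the strand setting is not given in the sources used here. Exons of Txnip overlapped those of Gm15441, an antisense transcript on the other strand, over 606 bases in GENCODE M21, and Gm15441 was not analysed here. The 31-base words of each longest coding transcript were searched in transcripts of other genes, in the same direction only. Of these words 6.95% in Txn1, 0.107% in Txnip and 0.0737% in Arrdc3 occurred there, and none did in the other 7 members. Sequence shared with a transcript of the opposite strand, such as Gm15441, is not counted in these shares, so they do not show that reads were unambiguous.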

How the data were processed

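RNA was sequenced in 3 control and 3 verapamil samples after library preparation with a SMARTER mRNA-Seq kit, per the labels' protocols. The authors deposited 1 estimated count per gene and library, a read count per the file headers, not scaled to depth or gene length, and 67.7% of values were not whole. The build is GRCm38, also called mm10, per the submitters' processing notes. The sources used here do not give the aligner, counter, annotation or strand setting.

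Estimated counts were rounded, filtered with filterByExpr (minimum count 10, minimum total 15), which left 13366 of 17491 genes, and TMM-scaled. Groups were compared by edgeR 4.0.16 in R 4.3.3 (quasi-likelihood test, robust fit, Benjamini-Hochberg adjustment over all genes tested, threshold 0.05). SEs were derived from the F statistic of that test, and intervals cover 95%. Log2 CPM used a prior count of 2. Members and gene lists were chosen with earlier results of these data known, and most named genes outside the members by a rule: up to 4 per list past the test with the largest change, otherwise the 2 most abundant, and the 5 genes most like Txnip and Txnrd1. Genes beyond the rule are marked. An exon overlap of a member with another gene is not reported here. In simulated counts for this comparison, 13366 genes with 200 changed in each of 5 draws, the test recovered 67.8% of 1.5-fold and 84.4% of 2-fold changes. Of its calls 9.34% were false, above the level set by the 0.05 threshold. In the data 4235 genes were called, and 72.9% of genes had the larger SD in the controls, whereas the draws gave both groups the same spread. These rates therefore may not carry over to the data. Libraries of a group were not copies of each other (chi-square per degree of freedom of at least 3.57). Alternatives were other scalings and filters, DESeq2 1.42.0, limma 3.58.1 (voom), a replicate block and each library left out.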

Additional observations from a re-analysis of the deposited data

How the results depend on the processing

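Txnrd1 kept its call under every alternative run, with log2 fold changes of 0.35 to 0.49, and Txnip kept its direction under each. The number of members called higher was 1 with no filter on low counts, 1 to 3 with 1 library left out, and 4 by limma-voom with a weight per library, which was chosen after seeing the data, as was the fit of counts without rounding. Members called lower numbered 0 to 1 with 1 library left out. All genes called numbered 4235, and 2236 to 5042 with 1 library left out. Scaling by library totals alone moved the median of all genes by 0.08 on the log2 scale, and left 6 members without overlap between groups in place of 2. The share of all genes without overlap under that scaling is not given here, so the 6 cannot be read as particular to the members. That scaling turned the small differences of Arrdc2 (0.0447), Arrdc3 (0.0627), Txn2 (0.0640) and Txnrd2 (0.0506) positive, as limma-voom with weights did for Arrdc2 (0.13), Txn2 (0.00880) and Txnrd2 (0.0147). With 1 library left out, these genes ranged from -0.17 to 0.15 for Arrdc2, -0.0651 to 0.0162 for Arrdc3, -0.0497 to 0.0232 for Txn2 and -0.0653 to 0.0121 for Txnrd2. The log2 ratio of Txnip to Txn1 was 0.26 to 0.72 higher with verapamil when 1 library was left out. With the shortest transcript 3 of 10 members kept their place in the order of levels. The cause of these differences was not tested.

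Same-numbered libraries did not deviate together (correlations of 0.00892, -0.167 and -0.127 for numbers 1, 2 and 3). With 3 libraries per group these values cannot show whether the samples were paired, and the labels do not state it. With the replicate number as a block, 2953 genes and 2 members were called, and the Txnip to Txn1 ratio, a fit added after seeing the data, had an exact p = 0.5. The block ended the calls of Glrx3 (adjusted p = 0.0689), Hecw1 (0.0545), Nlrp3 (0.0524) and Rrm2 (0.0528), and among proteins tied to Txnip function 3 rose and among NEDD4 ligases 3 fell. Without verapamil replicate 2, or any other library of a group of 3, that group rests on 2 libraries, so calls lost there also reflect fewer samples. Genes near 10 CPM (Arrdc2, Arrdc3, Txnrd2 and Txnrd3) rest on 171 to 270 estimated reads per library.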
